A study of Arabidopsis thaliana with 8 samples.

Results

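SPARE (Specific Parallel Analysis of RNA Ends) reads the 5′ ends of the RNA pieces that remain after a MIRNA precursor has been cut, and the comparison described here sets Arabidopsis thaliana plants with the genotype label Se -/- against wild-type plants (Col). It rests on 4 of the 8 libraries of the series, 2 of se and 2 of wild type (wt below), chosen by their titles. The other 4 libraries, 2 of hyl1 and 2 of fiery1, entered the models to share the estimate of the spread. The se and wt libraries came from 10-day-old plants grown in continuous light, with the tissue given as seedling whole bud. The labels name neither the allele nor separate cultures, so p-values measure only the spread between these libraries, which may be technical. Tags of 18 to 25 nt were kept apart from tags of 26 nt or more, and tags were summed by precursor and by the position of their 5′ end. Of the 108 precursors in the series, 104 had at least 1 tag in the se or wt libraries.

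SERRATE (SE) is a zinc-finger protein that works with the dicer DCL1 and the double-stranded RNA-binding protein HYL1 in the nucleus, where DCL1 cuts the stem of each MIRNA precursor to release the miRNA duplex. Most plant precursors are cut first near the base of the stem and then towards the loop. A few families, such as MIR159, MIR319, MIR156, MIR160, MIR162 and MIR171, are known to be cut from the loop side. After a base-proximal cut the 3′ remnant begins right behind the last base of the 3′-arm strand of the duplex. After a loop-proximal cut the 3′ piece begins at the 5′ end of that same strand. Ends within 1 nt of either site were counted to it.

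The 3′-arm strands of the precursors on which the results turn are shown because the 2 sites are their edges. The strand is in capitals, so the loop-proximal site is the first capital and the base-proximal site is the first small letter after the capitals. Sequences are from the RefSeq TAIR10.1 reference, in DNA letters.
MIR156a (chr2:10676445-10676496, minus strand): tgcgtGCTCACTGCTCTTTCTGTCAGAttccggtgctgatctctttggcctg
MIR169a (chr3:4358986-4359035, minus strand): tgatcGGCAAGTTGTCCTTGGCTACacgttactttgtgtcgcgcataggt
MIR159b (chr1:6220808-6220858, plus strand): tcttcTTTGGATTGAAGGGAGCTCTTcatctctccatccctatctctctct
MIR166b (chr3:22922296-22922346, plus strand): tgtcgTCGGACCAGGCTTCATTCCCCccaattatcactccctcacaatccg
MIR398b (chr5:4691102-4691152, plus strand): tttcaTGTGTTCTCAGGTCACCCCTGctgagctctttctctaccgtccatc
MIR403 (chr2:19415149-19415199, plus strand): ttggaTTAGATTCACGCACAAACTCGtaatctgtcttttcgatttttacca
MIR162a (chr5:2634911-2634961, minus strand): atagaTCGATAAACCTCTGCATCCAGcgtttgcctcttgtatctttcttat

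In 2 of these precursors the miRNA itself lies on the 5′ arm, and its mature sequence is given with the seed, bases 2 to 8, in capitals.
miR156a-5p: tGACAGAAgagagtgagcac
miR169a-5p: cAGCCAAGgatgacttgccga

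The se libraries held 299513 and 510438 tags, against 80166 and 126556 in wt, and of tags of 26 nt or more they held 41677 and 82159, against 56554 and 121429 in wt. Library 2 of se was registered apart from library 1, with a later sample number, and both wt libraries were registered with se library 1. Tags were counted without molecular identifiers, so intervals and floors cover counting error only. With 2 libraries against 2, the smallest p that an exact permutation test can give is 0.333, two-sided, and the library-wide shares of se against wt below that did not overlap reached that value.

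Fewer of the ends in se lay at the sites of a precise cut. Base-proximal ends made up 27.7% and 24.7% of tags of 26 nt or more in se, against 41.3% and 44.2% in wt. The se mean was 26.2% ± 2.11 and the wt mean 42.7% ± 2.01 (SD, n = 2 each). Loop-proximal ends made up 14.7% and 10.8% in se, against 31.0% and 27.8% in wt. The groups did not overlap for either site, and the difference was -16.5 percentage points at the base and -16.7 at the loop.

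The zone with the largest difference in the other direction lay downstream of the duplex, in the lower stem and the tail of the precursor. Ends there made up 29.7% and 31.3% in se, against 11.8% and 7.08% in wt. Ends inside the 3′-arm strand made up 11.95% and 15.4% in se, against 6.95% and 7.27% in wt. Ends upstream of the strand, in the loop, the 5′ arm or beyond, made up 15.5% and 17.5% in se, against 8.95% and 13.7% in wt. In each of these 3 zones both se libraries were above both wt libraries.

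**Figure D1:**
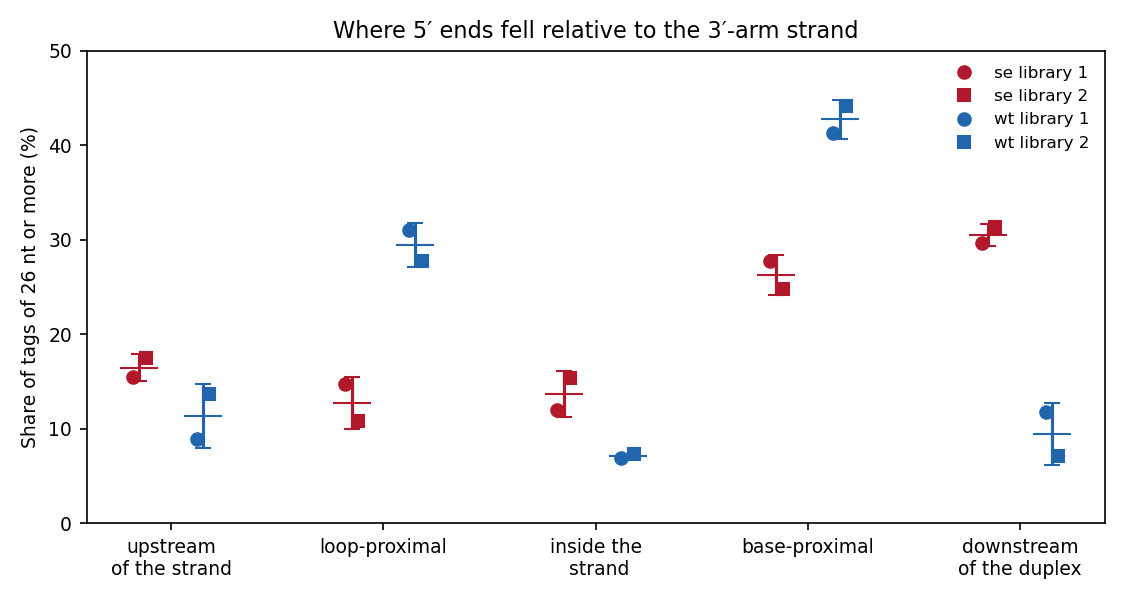
Share of tags of 26 nt or more (y axis, percent) in 5 zones around the 3′-arm strand (x axis), with se in red left of wt in blue; points are libraries, and bars are the mean and SD of 2 libraries. The se libraries lie below the wt libraries at the loop-proximal and base-proximal sites and above them in the other zones.

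Most precursors had a common 3′ end that many of their tags reached. It was taken as the most counted 3′ end among the precursor's matching tags of 45 nt or less, over all libraries. The cDNA was made with primers specific to the precursors, per the labels' protocols. Tags of 26 nt or more that ended within 1 nt of that common end made up 12.96% and 19.7% in se, against 2.33% and 2.27% in wt. Without them, downstream ends were 19.3% and 15.1% in se, against 9.90% and 5.30% in wt. Base-proximal ends were then 31.8% and 30.7% in se, against 42.0% and 44.8% in wt. The differences kept their direction and were smaller, at 9.61 and -12.2 percentage points. Tags were at most 51 nt long, so leaving out common-end tags could only remove 5′ ends near that end. The part of these tags in the result beyond that was not tested.

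**Figure D2:**
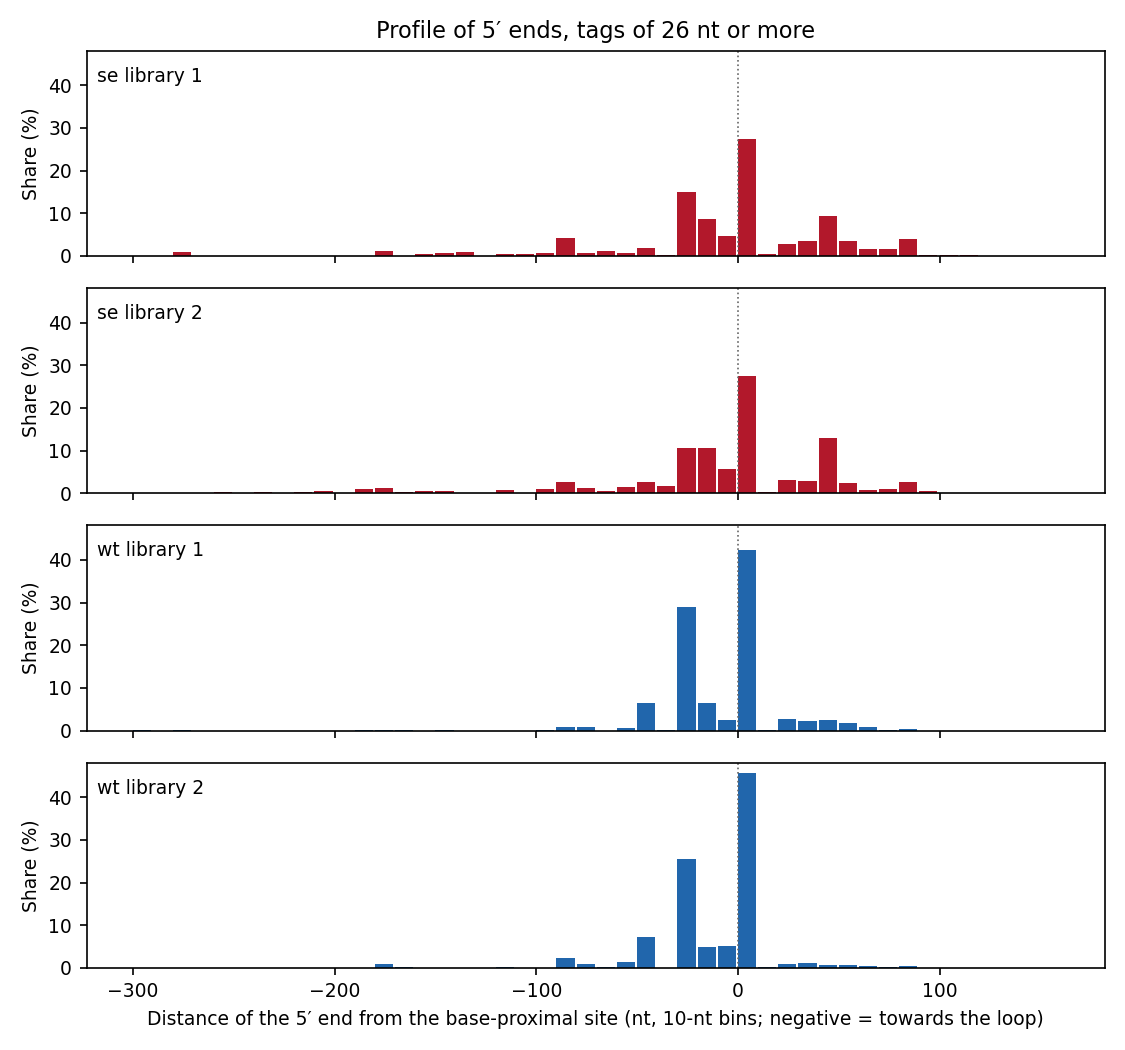
Share of tags of 26 nt or more (y axis, percent) by distance of the 5′ end from the base-proximal site (x axis, nt, 10-nt bins), one panel per library, se above wt. The wt libraries have high bars at the base-proximal and loop-proximal sites, and the se libraries have lower bars there and further bars on both sides.

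The library-wide value at the loop rested in part on 1 precursor. MIR159b, whose miRNA represses GAMYB-like transcription factors and which is cut from the loop side, held 12.7% and 8.92% of tags of 26 nt or more in se, against 30.7% and 27.5% in wt. Without it the loop-proximal share was 11.99% and 8.14% in se, against 18.6% and 15.7% in wt, a difference of -7.08 points. The base-proximal difference without it was larger, at -28.8 points, with 31.3% and 27.0% in se and 56.5% and 59.4% in wt.

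There were 20 precursors with at least 20 tags of 26 nt or more in each se and wt library, and these were compared one by one. The base-proximal share was lower in both se libraries than in both wt libraries in 10 of the 20 (50%) and higher in 2 (10%). The median difference over the 20 was -16.2 percentage points. Downstream ends were higher without overlap in 9 (45%) and lower in 2 (10%), upstream ends higher in 7 (35%) and ends inside the strand higher in 4 (20%), with 0 lower (0%) in both. Some of these cases rest on 1 library or on few tags. The downstream rise of MIR157c, MIR162a, MIR167a and MIR399c lay in 1 se library, with 2, 1, 1 and 6 tags in the other. MIR159b had 1 tag inside the strand in se library 2. MIR400, higher at the base, had 1 base-proximal tag in each se library. MIR399a, higher at the base and lower downstream, differed mainly from wt library 1. The gap at the base was narrow in MIR156c, with 3.56% in se library 1 against 5.02% in wt library 2. It was narrow in MIR159b too, with 3.29% in se library 1 against 3.95% in wt library 2. The loop-proximal share was lower without overlap in 4 (20%) and higher in 1 (5%), and 9 precursors had no loop-proximal tag in any of the 4 libraries. Without tags at the common end 19 precursors remained deep enough, with the base-proximal share lower without overlap in 10 (52.6%) and downstream ends higher in 8 (42.1%). The loop-proximal share was then lower without overlap in 3 (15.8%) and higher in 1 (5.26%).

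**Figure D3:**
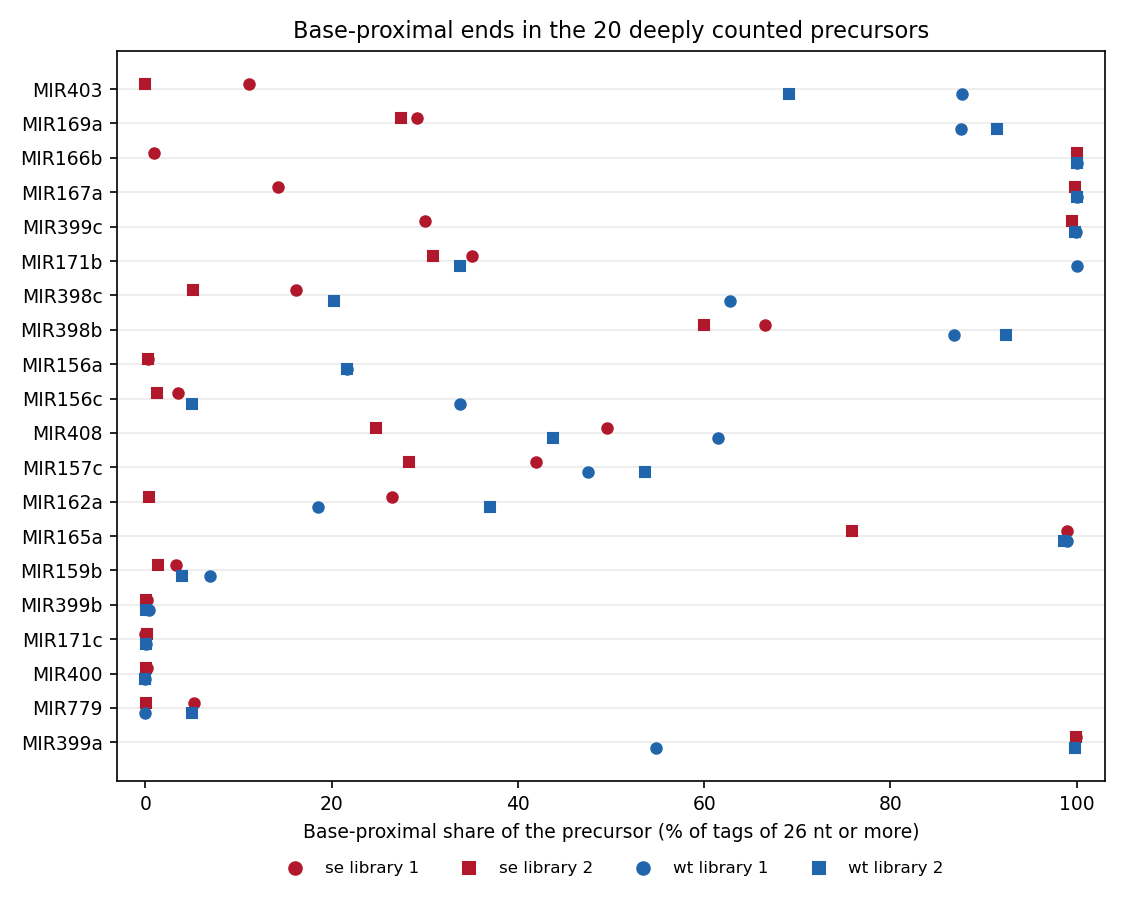
Base-proximal share (x axis, percent of the precursor's tags of 26 nt or more) in 20 precursors (y axis), with se libraries in red above wt libraries in blue. MIR403, MIR169a, MIR398b and MIR156a are among those whose se libraries both lie to the left, and in MIR166b a single se library does. In MIR167a and MIR399c 1 se library lies far to the left and the other just left of wt.

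MIR156a passed the test of this share, and it was 1 of 20 precursors tested (5%). It gives miR156, which represses the SPL transcription factors and keeps the plant juvenile. Its base-proximal share was 0.339% and 0.274% in se, 3 tags in each library of 885 and 1096, against 21.7% and 21.7% in wt, 191 of 882 and 144 of 664. The share fell in se, with a logit difference of -4.35 ± 0.480 (SE) and an adjusted p of 0.00351 in limma. With the se and wt libraries alone in the model the adjusted p was 0.0759. Upstream ends of MIR156a were 18.3% and 19.4% in se, against 0% and 0.151% in wt.

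MIR169a, whose miRNA represses NF-YA subunits, had fewer base-proximal and more downstream ends in both se libraries. Its base-proximal share was 29.1% and 27.4% in se, against 87.6% and 91.4% in wt. Its downstream share was 57.7% and 59.8% in se, against 12.4% and 8.52% in wt. The se and wt libraries lay far apart, and the limma adjusted p of the base-proximal share was 0.129. Nearly all of its base-proximal ends lay 1 nt after the site, so the logit difference was -3.09 with the 1-nt tolerance and -0.12 at the exact position. A single position 49 nt after the site held 28.4% and 29.6% in se, against 8.198% and 2.67% in wt. Every tag there was 26 nt long, the shortest length kept, and reached the common 3′ end of the precursor, 74 nt after the site. Without tags at the common end the downstream share of MIR169a was 5.94% and 8.32% in se, against 0.118% and 4.36% in wt. Its base-proximal share was then 64.7% and 62.6% in se, against 99.8% and 95.6% in wt, so both differences kept their direction and were smaller.

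MIR398b and MIR398c give miR398, which targets the copper/zinc superoxide dismutases. The base-proximal share of MIR398b was 66.5% and 59.9% in se, against 86.8% and 92.4% in wt (adjusted p = 0.129, limma). That of MIR398c was 16.2% and 5.08% in se, against 62.8% and 20.3% in wt (adjusted p = 0.242, limma). Neither passed, although the se libraries were below the wt libraries in both. MIR399c, from the phosphate-responsive miR399 family, had 29.99% and 99.5% in se, against 99.9% and 99.8% in wt (adjusted p = 0.242, limma), so 1 se library carries the difference.

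MIR403, whose miRNA targets the Argonaute AGO2, had its base-proximal share at 11.1% and 0% in se, against 87.7% and 69.1% in wt (adjusted p = 0.129, limma). The se values rest on 27 and 180 tags. A position 169 nt upstream of the base-proximal site held 77.8% and 100% of them, against 12.3% and 22.6% in wt. That position, chr2:19415006, lay upstream of the annotated precursor, which begins at chr2:19415052. The leading end of this precursor was the same in both se libraries and differed from that of both wt libraries.

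Among the loop-to-base families, 6 precursors were deep enough, and their median loop-proximal difference was -21.2 percentage points, beside 0 over all 20. The 9 precursors with no loop-proximal tag in the 4 libraries were all among the other 14, and they weigh on that 0. At the base the median difference was -15.6 points in the 6 and -20.9 in the other 14. In MIR159b the loop-proximal share was 33.3% and 37.6% in se, against 59.1% and 59.7% in wt (adjusted p = 0.355, limma). An end further towards the loop in MIR159b, 50 nt upstream of the base-proximal site, held 7.52% and 24.9% in se, against 19.9% and 23.7% in wt, and there the groups overlapped. MIR162a, whose miRNA targets DCL1 itself, had 25.5% and 21.6% in se, against 45.6% and 54.2% in wt. MIR171c, whose miRNA targets GRAS-family transcription factors, had 13.9% and 28.2% in se, against 39.0% and 56.9% in wt. In these 3 the se libraries were below both wt libraries. For MIR171c that held only with common-end tags kept. Without them its loop-proximal share was 16.8% and 50.3% in se, against 40.9% and 58.2% in wt, with overlap. MIR156a had 39.3% and 80.2% in se, against 78.2% and 78.2% in wt, with overlap. MIR156c had 0% and 0% in se, against 0% and 24.7% in wt. MIR171b had 60.8% and 0.145% in se, against 0% and 49.5% in wt, so its libraries differed as much within a genotype as between them.

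The loop-proximal share passed in 0 of 20 precursors (0%) in limma, with 1 at an unadjusted p under 0.05. That precursor was MIR166b, which had no loop-proximal tag in any of the 4 libraries, so its value comes from the offset of 0.5 and the depth alone. MIR403, MIR399c and MIR165a, also among the 6 smallest p-values, likewise had none in the 4 libraries. MIR779 was the single precursor with more loop-proximal ends in se without overlap, at 82.1% and 86.1% in se, against 69.1% and 72.8% in wt.

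Among the downstream ends of MIR171c, a position 57 nt after the base-proximal site held 36.8% and 27.5% in se, against 6.54% and 4.53% in wt. It led in se library 1, whereas in se library 2 a position 59 nt after the site led with 31.0%. Every tag at 59 nt ended within 1 nt of the common end, 110 nt after the site. From 57 nt no tag of at most 51 nt could reach that end. In MIR408, whose miRNA targets laccases and plantacyanin, an end 18 nt upstream of the base-proximal site held 25.4% and 14.98% in se and was at 0 in both wt libraries. Its 281 and 520 tags in se stand beside 2711 and 5472 tags of the precursor in wt. In MIR162a the upstream ends made up 47.8% and 37.8% in se, against 0.196% and 0% in wt, yet they lay mostly 271 and 273 nt upstream in se library 1 and mostly 186 and 191 nt upstream in se library 2. These positions lay upstream of the annotated precursor, whose 5′ edge is chr5:2635044 on the minus strand.

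The positions used differed more between the se libraries than between the wt libraries. The leading position of a precursor was the same in both se libraries in 9 of 20 precursors, against 17 of 20 in wt, and in 8 of 20 it was the same in all 4 libraries. The overlap of 2 libraries was the sum over positions of the smaller of the 2 shares. Its median was 42.1% between the se libraries, against 79.9% between the wt libraries. Between se and wt libraries, with the mean taken over the pairs in each precursor, the median was 50.2%. By this median the se libraries were no more like each other than like the wt libraries. The overlap was smaller within se than within wt in 17 of the 20 precursors. MIR399a, whose miRNA targets the ubiquitin-conjugating enzyme PHO2, went the other way, with 99.9% in se and 55.1% in wt. The second se library's separate registration moves with this result, and its part was not tested.

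**Figure D4:**
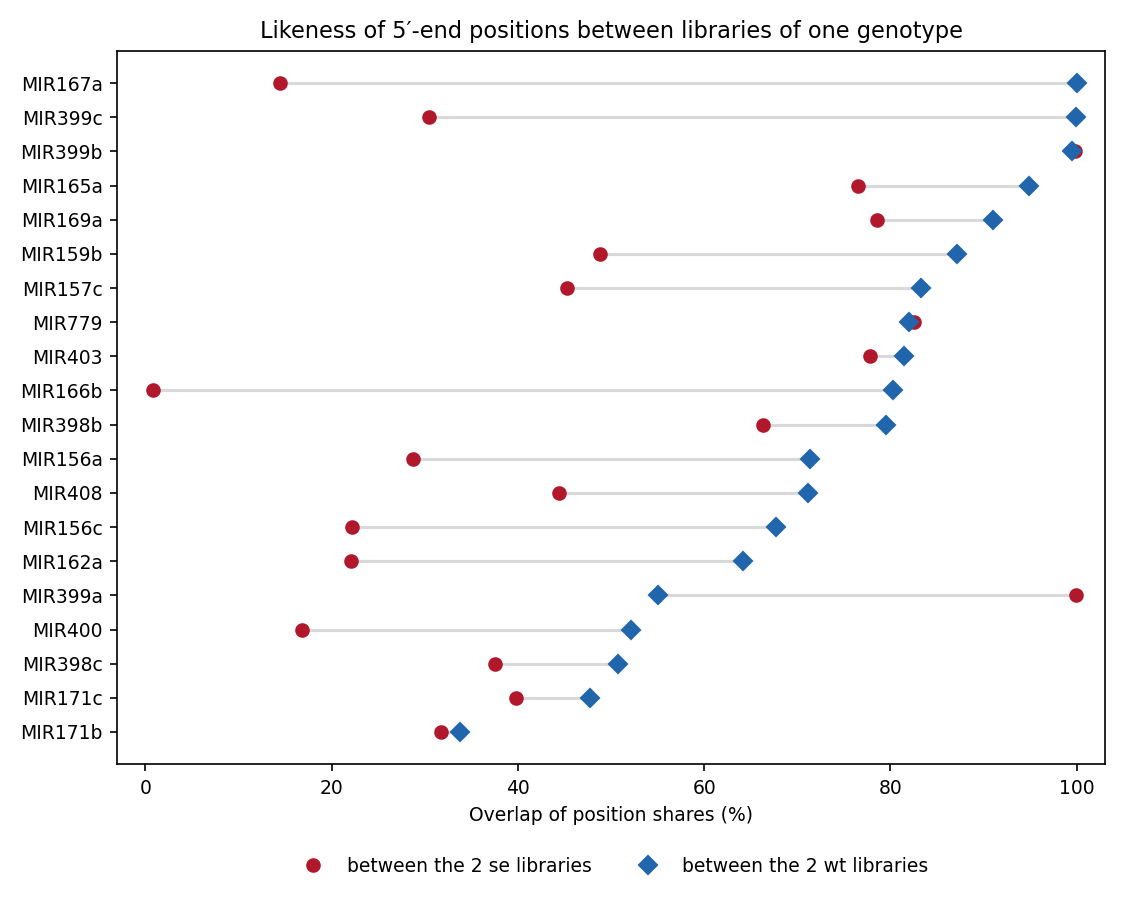
Overlap of the position shares of 2 libraries of one genotype (x axis, percent) in 20 precursors (y axis), with se in red and wt in blue, joined by a line. The se point lies left of the wt point in 17 of the 20 precursors.

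MIR166b shows the difference within se most sharply. Its miRNA represses the HD-ZIP III transcription factors. In se library 1 99.1% of its 111 tags began 17 nt upstream of the base-proximal site, and in se library 2 99.2% of its 251 tags began 1 nt upstream of it. The share exactly at that site was 0.901% and 0.797% in se, against 100% and 80.3% in wt, with an adjusted p of 0.0912 in limma for the leading position. With the 1-nt tolerance the share was 0.901% and 100% in se, against 100% and 100% in wt, so se library 2 then equalled wt.

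The leading position of each precursor, named from the mean over the 4 genotypes, passed in 0 of 20 precursors (0%) in limma, with 3 at an unadjusted p under 0.05. Its median share over precursors was 29.6% and 34.2% in se, against 72.9% and 70.9% in wt. With each library's own leading position the medians were 55.2% and 53.3% in se, against 72.9% and 70.9% in wt. The groups did not overlap under either definition.

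The se libraries also used more positions. At the depth of the shallowest of the 4 libraries, 41677 tags, 335 and 274 positions were seen in se, against 151 and 181 in wt. Of the positions seen in a library, 51.6% and 51.3% were seen in the other se library, and those held 75.5% and 76.3% of the tags. In wt 60.2% and 43.5% of positions were shared, and they held 93.6% and 89.5% of the tags.

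Single positions were tested as shares of their precursor, and 0 of 286 passed (0%) in limma, with 50 at an unadjusted p under 0.05. The 6 smallest p-values all had an adjusted p of 0.103. The smallest was 84 nt after the base-proximal site of MIR159b, at 2.04% and 5.43% in se, against 0.00576% and 0% in wt. In MIR398b a position 77 nt after the site held 1.91% and 2.13% in se and was at 0 in wt. In MIR169a a position 40 nt after the site held 4.98% and 2.52% in se and was at 0 in wt. In MIR398c a position 7 nt upstream of the site held 2.61% and 10.2% in se and was at 0 in wt. Another in MIR398c, 85 nt downstream, held 3.29% and 9.44% in se and was at 0 in wt. The remaining one was the wt position of MIR166b. Every tag at the positions of MIR159b, MIR398b and MIR169a reached the common end, and no tag did at that 85 nt downstream in MIR398c. Tags were at most 51 nt long, and the common end of MIR398c lay 137 nt after the site. No tag from that position could therefore reach it, so its lack of common-end tags shows nothing about them. The count of calls depended on the libraries, and it rose from 0 when either se library was left out. The 1 se library kept then adds no spread to the fit. The difference between the se libraries no longer enters it, so that rise shows nothing about the positions.

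Abundance was compared as tags per precursor in edgeR's quasi-likelihood test, and for tags of 26 nt or more 0 of 74 precursors passed (0%), with 16 at an unadjusted p under 0.05. DESeq2 called 21, of which 13 were higher and 8 lower in se. Leaving out the precursors with no tag in any se or wt library gave 68 tested and 2 called, MIR159b and MIR157c, both lower in se. That filter was tried first and is not part of the stated design. Each of the 2 was called in 5 of 18 alternatives: that filter, DESeq2, a 0 in the hits column, tags of 30 nt or more, and common-end tags left out. MIR169a was called with DESeq2 and when the se and wt libraries alone were in the model.

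MIR159b had 5291 and 7328 tags in se, against 17353 and 33376 in wt, a log2 fold change of -1.71 ± 0.402 (SE; adjusted p = 0.213, edgeR). MIR157c, a further source of the SPL-repressing miRNAs, had 1341 and 2744 in se, against 4695 and 8224 in wt (log2 fold change -1.43, adjusted p = 0.217, edgeR). MIR169a had 6806 and 19695 in se, against 2903 and 4049 in wt, a log2 fold change of 2.08 with an adjusted p of 0.217 in edgeR. Over its 18 alternatives that value ran from 0.76, without common-end tags, to 4.002, without the most used position. MIR156c had 758 and 2251 in se, against 373 and 458 in wt. The se and wt libraries did not overlap in any of the 4, and none passed.

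MIR164b, which targets NAC transcription factors that set organ boundaries, had 757 and 637 tags in se, against 8 and 7 in wt (log2 fold change 6.77, adjusted p = 0.217, edgeR). MIR160c, which targets auxin response factors, had 186 and 599 in se, against 1 and 1 in wt. Its ratio was 470 with an exact 95% counting interval of 130 to 3890. MIR827, which targets a phosphate-linked ubiquitin ligase, had 0 and 0 in se, against 71 and 1 in wt. That is at least 12.7-fold lower in se at the floor of 3 tags per library, and nearly all of the wt tags were in 1 library. None of the 3 passed the adjusted test.

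The leading precursors of tags of 26 nt or more in se were MIR169a with 16.3% and 24.0%, MIR398b with 14.96% and 13.6%, MIR159b, MIR398c with 9.19% and 6.51%, and MIR779 with 8.21% and 4.35%. In wt the same 5 held 5.13% and 3.33% for MIR169a, 9.84% and 20.4% for MIR398b, 2.04% and 5.03% for MIR398c, and 5.02% and 3.73% for MIR779. MIR159b led in wt, followed by MIR398b, MIR157c, MIR408 and MIR165a. MIR157c held 3.22% and 3.34% in se, against 8.30% and 6.77% in wt, and MIR165a, whose miRNA represses HD-ZIP III factors, held 1.33% and 2.86% in se, against 5.18% and 4.01% in wt.

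By family, loop-to-base precursors had a median log2 fold change of 0.50 over 17 tested, beside 0.10 over all 74, and short base-to-loop families one of 0.15 over 38. Development regulators had 1.85 over 42, with 14 higher and 6 lower in se without overlap, where all 74 had 18 (24.3%) and 16 (21.6%). The 4 phosphate precursors tested had a median of -0.93, with 3 lower without overlap, and the 4 copper precursors one of 0.18. No list had a member called. The lists hold precursors at or near 0 in a group, whose fitted values depend on the prior count. All these values move with the scaling, since the median of all precursors was 0.25 with DESeq2 size factors and 0.48 with library totals.

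The precursors of the silencing pathway itself were thin. MIR162a had 701 and 907 tags of 26 nt or more in se, against 511 and 1322 in wt. MIR403 had 27 and 180 in se, against 943 and 761 in wt (adjusted p = 0.249, edgeR). MIR168a, which targets AGO1, had 53 and 0 in se, against 0 and 1 in wt, so 1 se library holds nearly all of it. MIR168b had 0 and 1 in se, against 0 and 1 in wt, and MIR162b had none in the 4 libraries.

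Short tags made up the bulk of the se libraries. They were 86.1% and 83.9% of all tags in se, against 29.5% and 4.05% in wt, a difference of 68.2 percentage points without overlap. In both genotypes nearly all ended within 1 nt of their precursor's common end, 98.7% and 98.3% in se, against 99.3% and 93.7% in wt. The common end was itself taken from tags of 45 nt or less, these short tags included, so this closeness is in part set by the definition. That end lay at a median of 119 nt after the base-proximal site, and 95.8% and 95.7% of the short tags in se, against 96.9% and 93.4% in wt, were 19 or 20 nt long. Such tags lay outside the miRNA duplex, and their source was not tested.

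MIR162a held more of them than any other precursor in each of the 4 libraries. Its tag is shown because it alone made up 92.4% and 92.5% of the short tags of that precursor in se, against 89.4% and 89.9% in wt; the tags that led in MIR156e, and in se in MIR156c, follow it. The MIR156c tag made up 91.0% and 80.2% of the short tags of that precursor in se, against 31.1% and 8.54% in wt, where a tag that did not match the reference led. They are as read in the deposited files, and lie outside the duplex.
MIR162a tag (chr5:2634836-2634855, minus strand): cagagtcaagtccgattact
MIR156e tag (chr5:3867419-3867437, plus strand): ggatcaaagtaggtcgaag
MIR156c tag (chr4:15415264-15415283, minus strand): gctgccattgatttggttcc

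MIR162a held 49.4% and 48.3% of the short tags in se, against 79.4% and 46.3% in wt. MIR156e followed with 9.04% and 12.7% in se, against 0.470% and 1.60% in wt. MIR171c had 5.90% and 8.77% in se, against 7.31% and 13.2% in wt. MIR156c had 7.09% and 4.53% in se, against 0.805% and 4.80% in wt, and MIR319c, whose miRNA represses TCP transcription factors, had 2.34% and 5.88% in se, against 0.496% and 6.07% in wt. MIR169a, which ranked among the leading 5 in wt, had 2.83% and 2.43% in se, against 1.27% and 5.19% in wt. Of these 6, MIR156e had no overlap between the groups.

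The higher share of short tags was found in many precursors. Of 36 with at least 20 tags of any length in each se and wt library, 17 (47.2%) had a higher share of short tags in both se libraries than in both wt libraries, and 1 (2.78%) a lower one. The median difference was 18.2 percentage points. Some of the 17 rest on few short tags in se, with 2 and 11 in MIR157c and 7 and 15 in MIR167a. MIR166b had 2 in se library 1, and MIR408 had 13 in se library 2. The lower case, MIR397a, was at 99.9% and 99.9% in se, against 100% and 100% in wt. MIR171c had 93.3% and 96.3% short tags in se, against 43.9% and 20.7% in wt. MIR156c had 96.0% and 89.6% in se, against 33.8% and 34.9% in wt. MIR167b, whose miRNA represses auxin response factors, had 65.6% and 99.3% in se, against 0% and 1.49% in wt. MIR779 had no short tag in any of the 4 libraries.

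**Figure D5:**
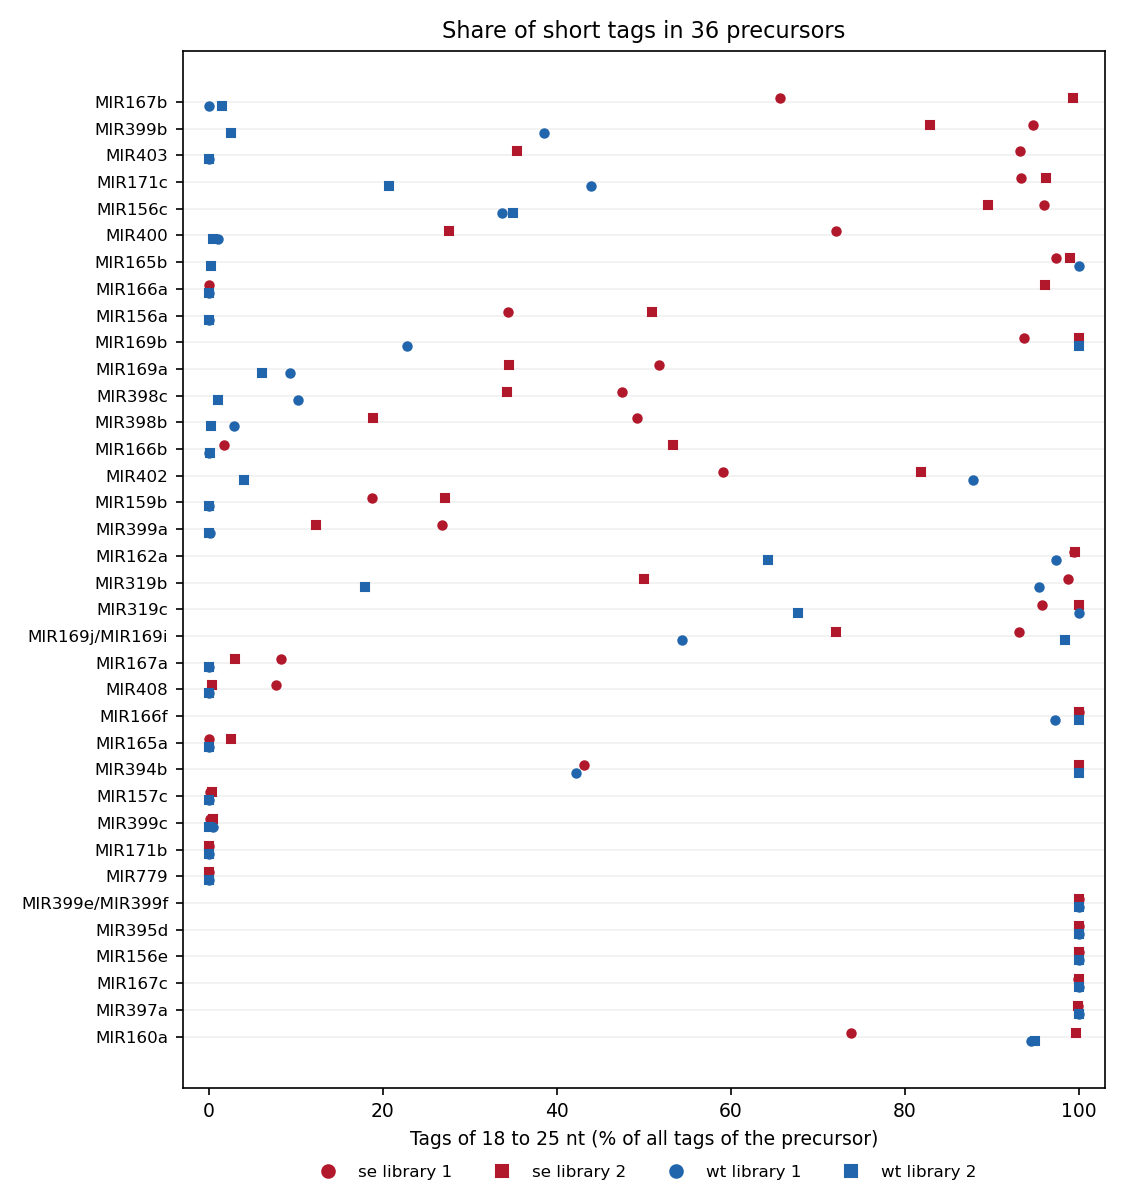
Share of tags of 18 to 25 nt (x axis, percent of all tags of the precursor) in 36 precursors (y axis), with se libraries in red above wt libraries in blue. In 17 of the 36 both se libraries lie to the right of both wt libraries, and precursors at the lower end hold nearly only short tags in both genotypes.

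Abundance of short tags relative to the other short tags passed in 0 of 78 precursors (0%) in edgeR, with 14 at an unadjusted p under 0.05, and DESeq2 called 4. Leaving out the precursors with no tag in any se or wt library gave 77 tested and 3 called, MIR156e, MIR156a and MIR157a, all higher in se; that filter, too, was tried first. Of 15 alternatives, MIR156e was called in 9, MIR157a in 7 and MIR156a in 5, library totals and DESeq2 among them for all 3. MIR156e had 23316 and 54276 short tags in se, against 111 and 82 in wt (log2 fold change 3.53 ± 0.809, adjusted p = 0.0731, edgeR). MIR156a had 464 and 1136 in se, against 0 and 0 in wt, at least 7.39-fold higher at the floor. MIR157a had 1081 and 2145 in se, against 1 and 0 in wt, a ratio of 97.6 with an exact counting interval of 17.5 to 3860. MIR403 had 372 and 99 in se, against 0 and 0 in wt, at least 2.51-fold higher at the floor over the group. That bound rests on se library 1, since the normalised level of 318 CPM in se library 2 lay under the wt floor of 382 CPM (counts scaled by edgeR's effective library size). The remaining pair had lower normalised levels in se, where the libraries are deeper in short tags, and did not pass. MIR156f had 1 and 8 tags in se, against 20 and 1 in wt (log2 fold change -6.03, adjusted p = 0.121, edgeR). MIR393a, which targets the auxin receptor TIR1, had 6 and 5 in se, against 1 and 6 in wt (log2 fold change -4.46, adjusted p = 0.253, edgeR). The wt libraries held 23612 and 5127 short tags, so the floor in wt is high.

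Of single positions of short tags, 6 of 95 passed (6.32%) in limma, all lower in se, and 0 did so with the se and wt libraries alone in the model. In 4 of the 6 the groups did not overlap. The largest share was in MIR397a, whose miRNA targets laccases, at 0.0917% and 0.0594% in se, against 32.1% and 36.4% in wt (adjusted p = 0.0101, limma). A tag of MIR156c that did not match the reference held 0% and 0.0103% in se, against 4.74% and 8.94% in wt (adjusted p = 0.00423, limma). The position of MIR171c was minor, at 0.0197% and 0.0346% in se, against 2.55% and 1.04% in wt. That of MIR162a was more so, at 0.00314% and 0.00290% in se, against 0.208% and 0.126% in wt. Those of MIR399b and MIR169b were at 0 in both se libraries and in wt library 2, with 6.43% and 13.5% in wt library 1. With the offset of 0.5, a share of 0 gets a lower logit where the precursor has more tags. MIR399b had 12915 and 8800 short tags in se, against 311 and 112 in wt. MIR169b had 1528 and 1564 in se, against 171 and 25 in wt. For these positions wt library 2 therefore differed from se by depth alone, and the calls rest in part on depth.

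HYL1 acts beside SE in the same complex, and the hyl1 libraries were set beside se and share its wt libraries. Base-proximal ends were 27.7% and 24.7% in se, against 44.2% and 40.6% in hyl1 and 41.3% and 44.2% in wt. Downstream ends were 29.7% and 31.3% in se, against 6.95% and 13.3% in hyl1. The difference between se and hyl1 was -16.2 percentage points at the base and 20.4 downstream, each at the smallest exact permutation p of 0.333. Loop-proximal ends were 14.7% and 10.8% in se, against 12.3% and 15.1% in hyl1, with overlap (exact permutation p = 0.667, two-sided). Ends inside the strand overlapped too, at 11.95% and 15.4% in se, against 12.7% and 10.8% in hyl1. Upstream ends were lower in se, at 15.5% and 17.5%, against 23.9% and 20.1% in hyl1. MIR156a did not follow the library-wide values at the base, with 0.339% and 0.274% in se, against 0.136% and 0.183% in hyl1. Its upstream ends were 18.3% and 19.4% in se, against 15.1% and 11.5% in hyl1.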

How the data were processed

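Each deposited file holds the authors' raw counts of identical tags with precursor, start position, length and a hit column. Per the labels' protocols, T4 RNA ligase was used on the processing intermediates, specific primers gave the cDNA, and PCR followed. The submitters' processing notes list cutadapt and TAIR10 with no version. Which aligner was run is not given in these sources. Entries within 5 nt were joined (111 entries to 108 precursors) and placed on RefSeq TAIR10.1 by exact tag matching, with 99.57% of counts matching. In 23 precursors the 3′-arm strand was predicted with RNAfold 2.7.2. R 4.3.3 was used.

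For abundance, edgeR 4.0.16 was used (quasi-likelihood test, TMM, filterByExpr with a minimum count of 10, all 8 libraries) and shares with limma 3.58.1 on logits (0.5 added to each count; at least 20 tags of the precursor in every se and wt library). Calls had a Benjamini-Hochberg adjusted p under 0.05, and DESeq2 1.42.0 was an alternative. Scripts were tested on simulated data. The precursors, lists and tests were chosen with earlier results of these data known. Before the stated abundance fit, a fit that also dropped precursors with no tag in any se or wt library had been run and its calls seen; both are given. Named precursors are the called ones with no overlap, or else the 6 smallest p-values; the 5 leading per genotype and tag length; deep loop-to-base precursors; and MIR162a, MIR162b, MIR168a, MIR168b and MIR403. Further single positions of MIR159b, MIR162a, MIR166b, MIR169a, MIR171c, MIR403 and MIR408, and the values of MIR167b and MIR399a, were chosen after they were seen, as was leaving common-end tags out of shares, zones and positions.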

Additional observations from a re-analysis of the deposited data

How the results depend on the processing

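With 2 libraries a group, precision is limited, and calls followed the settings. For tags of 26 nt or more, 0 calls became 21 with DESeq2, 2 with a 0 in the hits column, with tags of 30 nt or more, or without tags at the common end, and 1 with the se and wt libraries only. Of 2 settings chosen after seeing the data, leaving out precursors with no tag in any se or wt library gave 2, and base-proximal and loop-proximal ends only gave 1. For short tags 0 became 4 with DESeq2, 1 with DESeq2 size factors, 3 with library totals, with no filter, or (added) without such precursors, and 2 without the most used positions or with the se and wt libraries only. The base-proximal calls went from 1 to 2 with the exact position and 0 with the se and wt libraries only. Position calls for long tags went to 5 with neighbours joined, and for short tags from 6 to 3 at 10 counts, 2 with neighbours joined and 0 with the se and wt libraries only. The cause was not tested, beyond fewer libraries in the last.

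With 1 library left out, calls ranged from 0 to 1 and from 0 to 6 for abundance of long and short tags, 1 to 3 for base-proximal, 0 to 1 for loop-proximal and 0 to 2 for main-position shares, and 0 to 101 and 1 to 7 for positions of long and short tags. The replicate block gave 2 calls for short-tag abundance, MIR156e and MIR157a, and changed no other count by over 1.5 times. Same-numbered se and wt libraries had deviations correlated at 0.0251 (long) and 0.171 (short). Whether they share more than a number was not tested.

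The library-wide differences kept their direction throughout. The loop-proximal one ranged from -18.63 to -6.26, the base-proximal one from -28.8 to -12.2, the short-tag share from 22.7 (mean over precursors) to 80.9, and distinct short positions from 1.02 without wt library 1 to 65.9.

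Signs of log2 fold changes turned in these uncalled cases. Without the most used position they were -1.17 (MIR156c, short), 1.10 (MIR169a, short), 0.56 (MIR398b), -1.26 (MIR779), 0.11 (MIR165a) and -0.28 (MIR162a). For base-proximal and loop-proximal ends only they were -1.03 (MIR156c), 0.27 (MIR398b) and 0.0044 (MIR171b). For MIR779 they were -0.049 without the untagged precursors and -0.14 with tags of 30 nt or more. For MIR162a they were -0.021 at a minimum count of 50, -0.091 with a 0 in the hits column, -0.16 without the untagged precursors, -0.23 at 30 nt or longer and -0.078 when common-end tags were dropped. For MIR168b, with 1 tag a genotype, they were -3.20 with a term for later sample numbers, -0.17, -0.28, -0.19 and -0.035 in the same order of the last 4 settings. With 1 library left out they spanned -1.62 to 0.60 (MIR162a, short), -0.20 to 2.20 (MIR319c, short), -0.47 to 0.12 (MIR169a, short), -6.11 to 1.79 (MIR168a, short), -0.97 to 0.57 (MIR398b), -0.065 to 0.31 (MIR779), -0.13 to 0.63 (MIR162a), -1.74 to 2.16 (MIR171b), -3.77 to 10.1 (MIR168a) and -4.43 to 3.94 (MIR168b).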
